A study of Mus musculus with 2 samples.

Results

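*B2m*, *H2-K1*, *H2-D1*, *H2-T23*, *Tap1*, *Tap2*, *Tapbp*, *Tapbpl*, *Erap1* and *Nlrc5*, which encode MHC class I molecules and proteins that load them with peptide, were examined in RNA-seq of *K-Ras*-activated mouse lung cancer cells. These 10 genes were listed by name for their role and make up 10 of the 23183 genes measured. 7 of the 10 averaged 1 FPKM or more over both libraries and are called expressed. FPKM counts fragments per kilobase of transcript, scaled to the mapped fragments of the library.

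The study asked which genes *Runx3* regulates in such cells, and sequenced poly(A) RNA of KPR- cells as 1 library and of KPR_restored cells as 1 library. Both came from immortalized cells of a KPR L/F-TAM(-) lung cancer, from mice of mixed genetic background. These mice carried a Tomato reporter, the Flp ERT2 recombinase, *p53* flox/flox, *K-Ras* LSL-G12D/+ and *Runx3* flox/FSF. Nasal infection with *Ad-Cre*, an adenovirus with Cre under a *CMV* promoter, activated *K-Ras* and inactivated *p53* and the floxed *Runx3* allele, so both libraries share these changes and no library has intact *p53*. In KPR- cells the other *Runx3* allele is silenced by a Frt-Stop-Frt cassette (labelled genotype RUNX3 -/-), and in KPR_restored cells Flp ERT2, switched on by 4-hydroxytamoxifen (4-OHT), has removed the cassette (RUNX3 -/+). The sample titles give 0 h for KPR- and 16 h for KPR_restored. The labels list 1 μM 4-OHT for both libraries, although in the study's methods it is 4-OHT that turns KPR- into KPR_restored cells. Restoration of *Runx3*, exposure to 4-OHT and hours in culture therefore cannot be told apart in this comparison. The mice were 6 to 8 weeks old at infection, and how many lines or clones stand behind a library is not given in the sources used here.

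With 1 library per condition there are no replicates, so no test of the conditions was made and no p-value is given. Differences are log2(FPKM + 0.005) in KPR_restored minus KPR-, and a gene was counted as higher or lower when the difference reached 0.5 either way. The FPKM totals were 521340 in KPR- and 523647 in KPR_restored, and the steps between low FPKM values gave an estimated depth of 21.7 M and 22.4 M fragments. The 95% intervals beside the differences are exact Clopper-Pearson limits on estimated fragments. They compare the 2 libraries, cover counting error only, and treat PCR reads without molecular identifiers as if they were separate molecules.

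*Runx3*, the targeted gene, had 0.348 FPKM in KPR- and 0.349 FPKM in KPR_restored, from about 28 and 29 fragments, a difference of 0.01 (counting interval -0.80 to 0.81). A value per gene does not separate transcripts of the restored allele from others, so it does not check the labels, and each direction below compares the library labelled KPR_restored with the one labelled KPR-. *Trp53*, whose floxed part is deleted in both libraries, had 2.12 and 2.17 FPKM. All 6 epithelial markers were expressed, with *Epcam*, an epithelial adhesion molecule, at 105 and 91.6 FPKM and *Krt8*, an epithelial keratin, at 1711 and 1631 FPKM. The keratin *Krt7* fell from 1229 to 743 FPKM (-0.73), while *Cdh1* and *Krt19* had differences of 0.13 and 0.11. Of 5 markers of alveolar type II cells, *Sftpc*, *Sftpb*, *Sftpa1* and *Lamp3* were listed at 0 in both libraries and *Nkx2-1* had 0.0444 and 0.0216 FPKM. The labels name only lung cancer as the source, and these markers place the cells among epithelial cells without those of type II cells.

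Markers of other cells that express class I genes averaged under 1 FPKM, except *Cd68*, *Csf1r*, *Kdr* and *Col1a1*. Of 8 leukocyte markers, *Cd3e*, *Adgre1* and *Lyz2* were at 0 in both libraries, and the pan-leukocyte marker *Ptprc* was at 0 in KPR- and rested on 1 fragment in KPR_restored. The summed level of the 8 was 5.81 FPKM in KPR- and 7.98 FPKM in KPR_restored, nearly all from *Cd68* (3.08 and 6.78 FPKM) and *Csf1r* (2.68 and 1.19 FPKM). The 4 endothelial markers summed to 1.16 and 2.22 FPKM, with *Kdr* at 1.10 and 2.05 FPKM and *Tek* at 0 in both. The 6 fibroblast markers summed to 12.7 and 5.33 FPKM, with *Col1a1* at 12.2 and 4.21 FPKM and *Lum* at 0 in both. *Dcn* of the same list went the other way, from 0.173 to 0.742 FPKM or about 6 and 26 fragments, and *Pdgfra* had 0.273 and 0.363 FPKM. The part of such cells in the results was not tested. In bulk RNA, a change in the number of cells of a kind and a change of RNA per cell cannot be told apart.

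MHC class I molecules display peptides from a cell's own proteins to CD8 T cells, and each consists of a heavy chain, the light chain β2-microglobulin and a peptide. Peptides cut by the proteasome are pumped into the endoplasmic reticulum (ER) by the TAP transporter, trimmed there by aminopeptidases, and fitted into the heavy chain by the loading complex, in which tapasin bridges TAP and class I. The genes are expressed at a basal level in most epithelial cells and are raised together by interferon through IRF, STAT and NF-κB factors and through the transactivator NLRC5, and their loss is a known way for tumor cells to escape T cells.

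Promoter sequences are shown for the light chain, a classical heavy chain and *Tap1*, which differ in the motif matches described here. A link of these matches to the levels given below was not tested. They are the 250 bases before the transcription start in RefSeq (GRCm38.p6), 5′ to 3′ on the gene's strand, and 7 of the 10 members were found in that set. *Tap2*, *Tapbpl* and *Nlrc5* were not. Capitals mark matches on either strand to short motifs. For the interferon-stimulated response element (ISRE) these were its core, GAAANNGAA, and a variant form, GAANNGAAA. A short form of NF-κB sites (GGGANNNCC) and the gamma-activated site of STAT dimers (TTCNNNGAA) were searched too. So were the cyclic AMP response element (TGACGTCA) and the core site of RUNX factors (TGTGGT). The short NF-κB form misses sites of other spacing, so a window without a match to it can still hold an NF-κB-like site. A match is a description of the letters and not evidence of binding.
B2m, chr2:122147437-122147686 (+): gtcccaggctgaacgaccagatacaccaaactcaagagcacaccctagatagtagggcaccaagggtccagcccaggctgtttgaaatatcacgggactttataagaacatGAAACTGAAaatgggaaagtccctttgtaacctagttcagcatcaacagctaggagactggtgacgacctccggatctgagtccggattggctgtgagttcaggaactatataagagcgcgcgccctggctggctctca
H2-K1, chr17:34000348-34000597 (-): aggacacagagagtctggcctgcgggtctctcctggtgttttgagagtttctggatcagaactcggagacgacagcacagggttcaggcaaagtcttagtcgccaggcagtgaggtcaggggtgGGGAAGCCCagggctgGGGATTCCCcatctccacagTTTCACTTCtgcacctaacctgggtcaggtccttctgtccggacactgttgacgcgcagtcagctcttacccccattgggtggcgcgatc
Tap1, chr17:34187306-34187555 (+): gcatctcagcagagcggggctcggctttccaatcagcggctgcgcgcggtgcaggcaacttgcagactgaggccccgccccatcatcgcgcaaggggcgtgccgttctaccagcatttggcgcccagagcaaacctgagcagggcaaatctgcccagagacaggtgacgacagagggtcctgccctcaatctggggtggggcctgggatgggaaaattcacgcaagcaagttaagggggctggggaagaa

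*H2-K1* and *H2-D1* held the same 3 matches in the same order and with the same spacing. They were 2 of the short NF-κB form and then 1 of the ISRE variant. Counted back from -1 at the last base before the start, they began at -126, -110 and -90 in *H2-K1* and at -186, -170 and -150 in *H2-D1*, whose window is chr17:35262844-35263093. A further *H2-K1* window in the set, for a start nearby, held the same 3 matches. *B2m* held 1 ISRE core from -139 to -131, *H2-T23* held 1 on the other strand from -123 to -115 (chr17:36032702-36032951), and *Erap1* held 1 on the other strand from -9 to -1 (chr13:74639603-74639852). *Tapbp* (chr17:33919228-33919477) was the only one of the 7 members in the set with the RUNX core, from -92 to -87. The windows of *H2-D1*, *H2-T23*, *Tapbp* and *Erap1* reach into exons of longer GENCODE M21 transcripts, so their starts are those of RefSeq only. The *Tap1* window held no match to these 6 motifs. It overlaps that of *Psmb9*, an immunoproteasome subunit gene on the other strand whose start lies 226 bases away, over 225 bases. Among all 32851 windows of 27025 genes, 14.05% held the RUNX core, 7.129% the ISRE core and 6.31% the ISRE variant. The short NF-κB form was in 15.83%, the gamma-activated site in 7.02% and the cyclic AMP response element in 1.546%. The GGGATTCCC match of *H2-K1* and *H2-D1* is the same on both strands.

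The 3 class I heavy chains had more FPKM in the KPR_restored library, with differences of 0.40 to 0.59 on the log2 scale, and of them only *H2-K1* reached 0.5. *H2-K1* (ENSMUSG00000061232.16), a classical heavy chain, lies at chr17:33996017-34000347 on the minus strand of GRCm38. It had 65.6 FPKM in KPR- and 98.7 FPKM in KPR_restored, from about 2007 and 3117 fragments. Its difference was 0.59 (counting interval 0.51 to 0.67). *H2-K1* was thus 1.505 times as high in KPR_restored, at percentile 91.0 of the differences of all 11231 expressed genes.

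*H2-D1*, the other classical heavy chain of the member list, lies at chr17:35262730-35267499 on the plus strand. It had 134 FPKM in KPR- and 178 FPKM in KPR_restored, from about 5514 and 7536 fragments. The difference of 0.40 (counting interval 0.35 to 0.45) stayed under 0.5 and stood at percentile 83.7. By level, *H2-D1* went from rank 602 to rank 448 among all genes, and *H2-K1* from rank 1334 to rank 848. *H2-D1* was 2.05 times as high as *H2-K1* per length in KPR- and 1.80 times in KPR_restored.

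*H2-T23* encodes Qa-1, a non-classical heavy chain that is read by inhibitory receptors of NK cells, and lies at chr17:36029773-36032855 on the minus strand. It had 12.2 FPKM in KPR- and 16.8 FPKM in KPR_restored, from about 334 and 474 fragments. Its difference was 0.46 (counting interval 0.25 to 0.67), and the interval holds 0.5. Class I genes resemble each other. Of the 100-base windows, 7.28% in *H2-T23* and 4.64% in *H2-D1* are identical to windows of other genes, against 0 of 1520 in *H2-K1*. These were counted against GENCODE M21, which lacks *H2-L*, so windows shared with *H2-L* are not included. Heavy chains also differ between mouse strains, and the MHC haplotype of this line is not given in the sources used here, so levels could depend on how well its alleles match the reference genome.

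*B2m*, the light chain of class I molecules, lies at chr2:122147686-122153083 on the plus strand, outside the MHC region. It had 138 FPKM in KPR- and 153 FPKM in KPR_restored, from about 1944 and 2227 fragments. The difference was 0.15 (counting interval 0.06 to 0.24), below those of the 3 heavy chains, and the interval does not overlap those of any of them. The ratio of *B2m* to the sum of *H2-K1* and *H2-D1* per length was accordingly 0.689 in KPR- and 0.553 in KPR_restored. In KPR- the counting intervals of the *B2m* and *H2-D1* levels overlapped (131.7 to 144.1 and 130.8 to 137.9 FPKM), so the order of these neighbours is not set there. In KPR_restored they did not, with *H2-D1* at 173.8 to 181.8 FPKM above *B2m* at 146.6 to 159.4 FPKM.

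**Figure D1:**
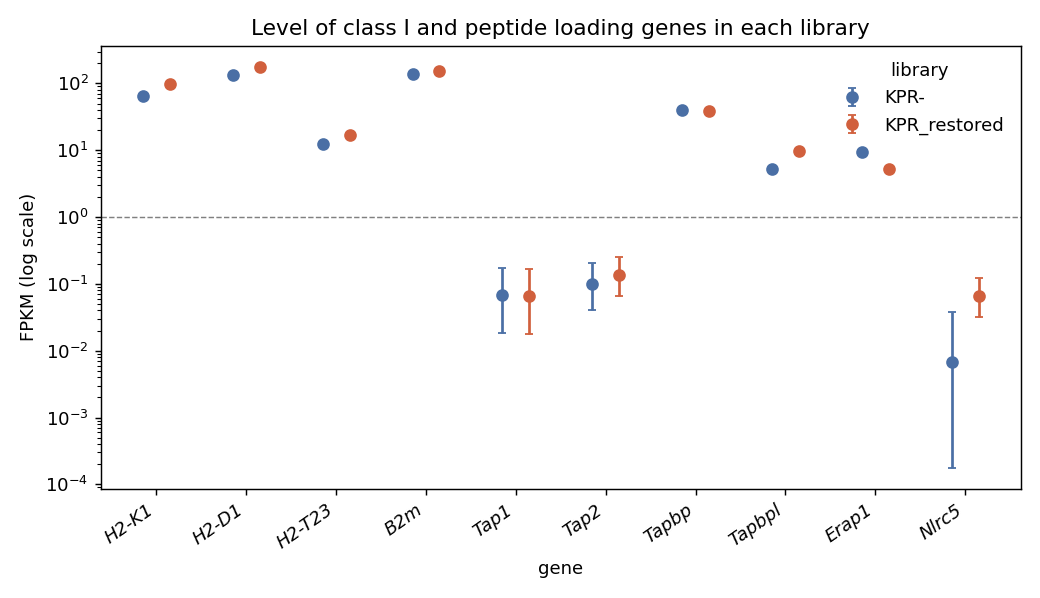
FPKM of the 10 genes (log axis) in the KPR- (blue) and KPR_restored (red) libraries, 1 library each. Bars are exact 95% Poisson limits on estimated fragments (counting error only) and are hidden by the points for the higher genes, and the dashed line marks an FPKM of 1. *Tap1*, *Tap2* and *Nlrc5* lie under the line in both libraries, and the heavy chains and *B2m* lie between 12.2 and 178 FPKM.

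The TAP transporter genes were close to the floor of detection. *Tap1*, one chain of the transporter, lies at chr17:34187553-34197225 on the plus strand and had 0.0688 FPKM in KPR- and 0.0668 FPKM in KPR_restored, from about 4 fragments in each library. *Tap2*, the partner chain, lies at chr17:34203527-34216321 on the plus strand and had 0.1002 and 0.1363 FPKM, from about 7 and 10 fragments. Neither difference could be resolved at this depth, since the counting intervals ran from -2.47 to 2.38 for *Tap1* and from -1.07 to 2.10 for *Tap2*. Their levels also overlapped within each library.

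The transporter genes were far below those of the heavy chains that depend on it. *Tap1* and *Tap2* together made 0.0845% of the summed FPKM of *H2-K1* and *H2-D1* in KPR- and 0.0735% in KPR_restored. 13 expressed genes of a list of 14 neighbours in the MHC region, not chosen for antigen presentation, had a median difference of 0.11, with 0 higher and 0 lower by 0.5. Of all expressed genes, 12.1% were higher and 9.29% lower by as much, so few of 13 genes would be past it in any case. *Flot1*, a membrane raft protein, had 0.49 and *Ring1*, a Polycomb subunit, had 0.50 when rounded and stayed under the threshold. *Vps52* and *Wdr46* had -0.23 and -0.18. *Hsd17b8* of that list was not matched.

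The loading genes *Tapbp* and *Tapbpl* had differences whose counting intervals did not overlap. *Tapbp* encodes tapasin, which holds class I at TAP, and lies at chr17:33915899-33929292 on the plus strand. It had 40.0 FPKM in KPR- and 38.1 FPKM in KPR_restored, from about 2331 and 2296 fragments, a difference of -0.07 (counting interval -0.15 to 0.02). The sum of *H2-K1* and *H2-D1* was 5.00 times *Tapbp* in KPR- and 7.25 times in KPR_restored.

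*Tapbpl* encodes TAPBPR, a tapasin relative that exchanges peptides on class I outside the loading complex, and lies at chr6:125223933-125231860 on the minus strand. It rose from 5.17 FPKM in KPR- to 9.70 FPKM in KPR_restored, from about 240 and 466 fragments. Its difference of 0.91 (counting interval 0.68 to 1.14) was the largest of the 7 expressed members and stood at percentile 96.2. *Tapbp* was 7.73 times *Tapbpl* per length in KPR- and 3.93 times in KPR_restored.

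*Erap1*, the ER aminopeptidase that trims peptides to the length class I holds, lies at chr13:74639568-74693201 on the plus strand. It fell from 9.42 FPKM in KPR- to 5.24 FPKM in KPR_restored, from about 1111 and 638 fragments. The difference of -0.85 (counting interval -0.99 to -0.70) was the only one of the 10 past the threshold downwards and stood at percentile 2.35. With the shortest coding transcript instead, about 29 and 17 fragments stood behind it. The interval, -1.77 to 0.10, then held 0. *Erap1* stood above *Tapbpl* in KPR- and below it in KPR_restored, with intervals of 8.87 to 9.99 and 4.53 to 5.86 FPKM in KPR- and of 4.84 to 5.66 and 8.85 to 10.6 FPKM in KPR_restored.

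*Nlrc5*, the transactivator of class I genes, lies at chr8:94434356-94527272 on the plus strand. It had 0.00679 FPKM in KPR- and 0.0658 FPKM in KPR_restored, which amounts to about 1 and 10 fragments. The ratio of 9.70 had a counting interval of 1.38 to 420. On the log2(FPKM + 0.005) scale the difference was 2.59 and counted as higher, and with a pseudocount of 1 it was 0.08. Both levels were far below 1 FPKM, so the gene adds to the count of higher members by 1 fragment against 10.

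**Figure D2:**
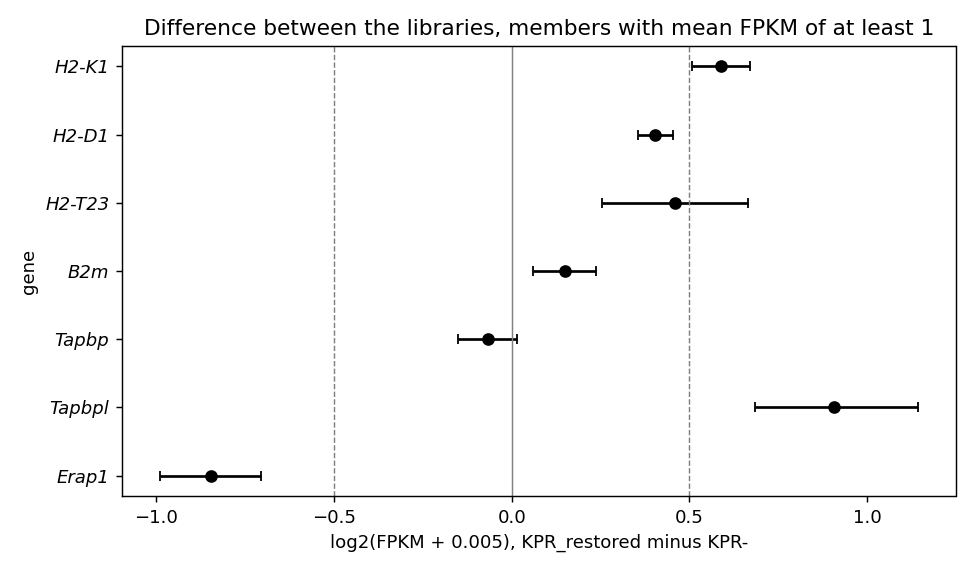
Difference in log2(FPKM + 0.005), KPR_restored minus KPR-, of the 7 expressed members, with exact 95% Clopper-Pearson limits on estimated fragments (counting error between the 2 libraries only). Dashed lines mark 0.5 either way. *H2-K1* (0.59) and *Tapbpl* (0.91) lie above the upper line, *Erap1* (-0.85) lies below the lower one, and the interval of *Tapbp* holds 0.

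Over all 10 members, *H2-K1*, *Tapbpl* and *Nlrc5* were higher by 0.5 or more and *Erap1* was lower, and the median difference was 0.42. Of all 23183 genes, 13.8% were higher and 12.9% lower by as much. Among the 7 expressed members, 2 were higher and 1 was lower, 5 were above 0 and the median was 0.40. Among all 11231 expressed genes, 12.1% were higher and 9.29% lower, 51.0% were above 0, and the median was 0.0086 with quartiles of -0.23 and 0.27. The 7 members differed in direction, with the heavy chains and *B2m* above 0, *Tapbp* near 0, and *Erap1* and *Tapbpl* toward the opposite ends of the distribution. A median over those 7 leaves out the 3 genes near the floor and says nothing of them.

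**Figure D3:**
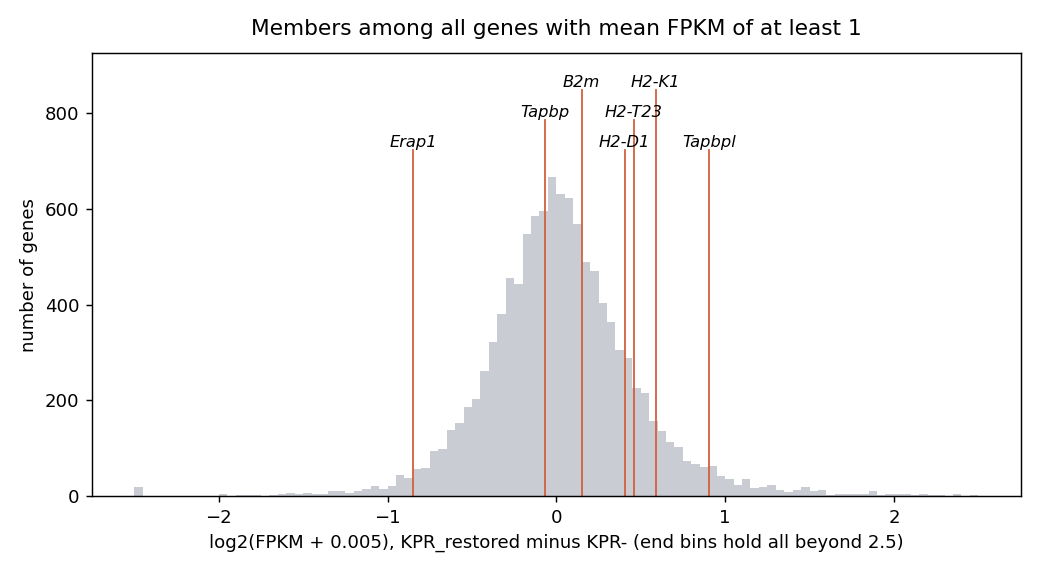
Histogram of the difference in log2(FPKM + 0.005), KPR_restored minus KPR-, over the 11231 expressed genes (mean of 1 FPKM or more), with the 7 such members as red lines whose heights carry no value. *H2-D1*, *H2-T23* and *H2-K1* lie above the upper quartile of 0.27, *B2m* and *Tapbp* lie between the quartiles, and *Erap1* and *Tapbpl* lie toward the lower and upper ends.

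Most of the remaining expressed class I genes also had differences above 0, with *H2-Q5* as the exception. Of a list of 26 other class I and class I-like heavy chains, 9 were at 0 in both libraries and 5 were expressed. All 5 were above 0, with a median of 0.41 and 2 higher by 0.5. *H2-T10* of these had a difference of 0.31 whose counting interval of -0.03 to 0.65 held 0, as did that of *H2-T22* below. Among all expressed genes, 51.0% were above 0 and 12.1% were higher by 0.5. *H2-M3*, which presents formylated peptides, rose from 2.59 to 4.32 FPKM (0.74, counting interval 0.30 to 1.19). *H2-T9* rose from 2.91 to 4.53 FPKM, a difference of 0.64, but has no fragment estimate.

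*H2-Q4* had 9.92 and 12.4 FPKM (0.32, counting interval 0.11 to 0.53). *H2-T22*, a ligand of γδ T cells, had 2.15 and 2.86 FPKM, a difference of 0.41 whose counting interval of -0.04 to 0.87 held 0. *H2-T9* and *H2-T22* are close relatives that can share reads, so their separate values are uncertain. Among genes under 1 FPKM, *H2-T24* had 0.903 and 0.653 FPKM (-0.46, counting interval -1.22 to 0.26), and *H2-Q7*, at 0.148 FPKM or about 4 fragments in KPR-, is listed at 0 in KPR_restored.

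Over all 32 H2 class I genes measured, 10 were expressed, of which 9 were above 0 and 4 were higher by 0.5. The shares over all expressed genes were 51.0% and 12.1%. The 4 were *H2-K1*, *H2-M3*, *H2-T9* and *H2-L*. *H2-L* rose from 8.56 to 19.7 FPKM, a difference of 1.20 with no fragment estimate. *H2-Q5* had 1.36 and 1.15 FPKM, a difference of -0.25 whose counting interval of -1.12 to 0.57 held 0. *H2-L* is a close relative of *H2-D1*, and with their FPKM summed the values were 142.9 and 197.4, a difference of 0.47, against 0.40 for *H2-D1* alone. Summed over all 32 genes, class I heavy chain FPKM went from 243.8 to 342.4, a log2 ratio of 0.49, and *H2-K1* and *H2-D1* made 82.0% and 80.7% of it.

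A list of 9 ER genes, with chaperones of heavy chain folding and loading beside the translocon gene *Sec61a1*, *Bcap31* and the glucosidase II genes *Ganab* and *Prkcsh*, had no difference above 0. All 9 were expressed, 2 were lower by 0.5 where 9.29% of all expressed genes were, and the median was -0.40. *Prkcsh* was nearest to 0, at -0.01 with a counting interval (-0.06 to 0.05) that held 0. *Calr*, calreticulin, fell from 675 to 314 FPKM, a difference of -1.10 (counting interval -1.13 to -1.07). *Pdia3*, the ERp57 disulfide isomerase that pairs with tapasin, fell from 521 to 305 FPKM (-0.77, counting interval -0.80 to -0.74).

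*Canx*, calnexin, had 230 and 171 FPKM, a difference of -0.42 (counting interval -0.45 to -0.39). The 9 genes summed to 2704 FPKM in KPR- and 1815 FPKM in KPR_restored, a log2 ratio of -0.58. Per unit of *H2-K1* and *H2-D1*, *Calr* was 3.38 in KPR- and 1.14 in KPR_restored, and *Pdia3* was 2.61 and 1.10. These chaperones serve many secreted and membrane proteins beside class I.

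Of the 3 subunits that set an immunoproteasome apart, *Psmb8* and *Psmb9* were at or near 0 and *Psmb10* was expressed. About 3 fragments of *Psmb8* gave 0.0900 FPKM in KPR-, and KPR_restored lists it at 0. *Psmb9* was listed at 0 in both libraries. A floor of 3 fragments on the transcript used for its length is 0.121 FPKM in KPR- and 0.117 FPKM in KPR_restored. *Psmb10* fell from 12.3 to 8.40 FPKM, a difference of -0.55 (counting interval -0.81 to -0.29). Beside their constitutive counterparts, *Psmb8* was 0.0646% of *Psmb5* in KPR- and *Psmb10* was 4.92% of *Psmb7* in KPR- and 3.32% in KPR_restored.

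In the list of 6 immunoproteasome, PA28 activator and assembly genes, 4 were expressed. Of these, 0 were higher and 1 was lower by 0.5, and the median was -0.09. The shares over all expressed genes were 12.1% higher and 9.29% lower. *Psme1*, an activator subunit, had 40.2 and 44.2 FPKM (0.14). Of the 3 constitutive catalytic subunits, none passed 0.5 and the median was 0.22, with *Psmb5* at 139 and 169 FPKM (0.28) and *Psmb6* at 149 and 173 FPKM (0.22). The 8 peptidases of antigen processing were all expressed and had values below 0, with none past 0.5 and a median of -0.11, where 51.0% of all expressed genes were above 0. The counting intervals of 4 of them, *Tpp2*, *Lap3*, *Thop1* and *Nrd1*, held 0. *Lnpep*, which trims peptides in endosomes for cross-presentation, had the lowest difference of these at 11.5 and 8.21 FPKM (-0.48), and *Blmh*, a cytosolic peptidase, had 22.1 and 16.7 FPKM (-0.40).

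**Figure D4:**
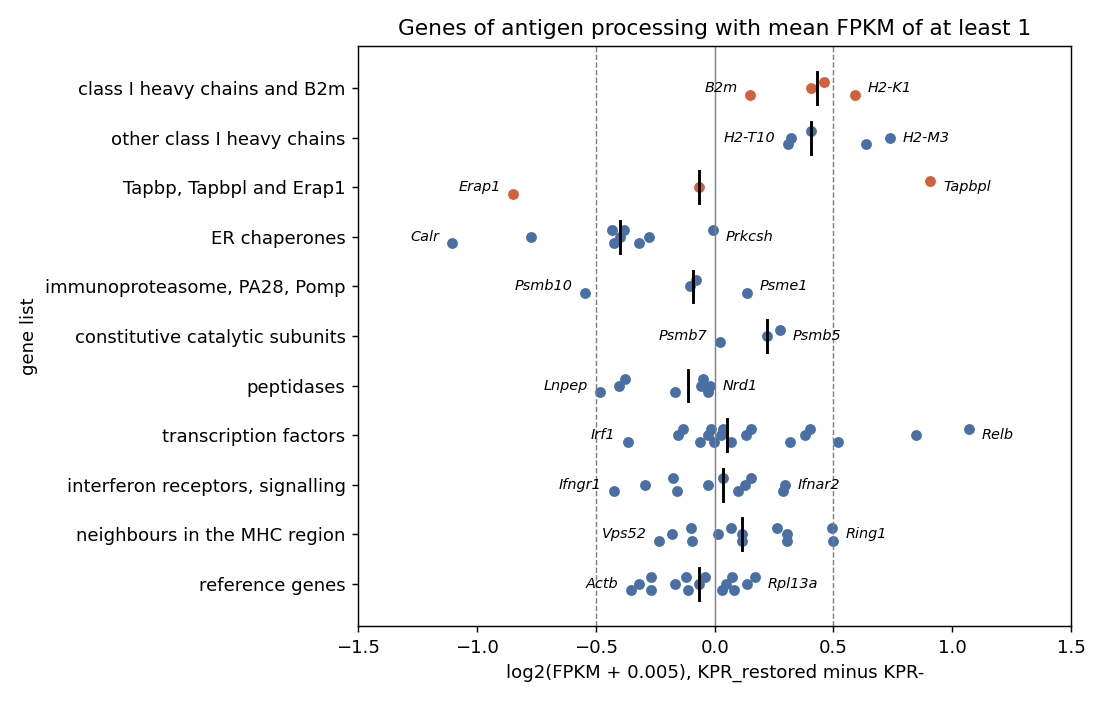
Difference in log2(FPKM + 0.005), KPR_restored minus KPR-, of each expressed gene in 11 gene groups of antigen processing and comparison, with members of the 10-gene list in red. Black bars are medians and dashed lines mark 0.5 either way. The 9 genes of the ER chaperone list and the 8 peptidases have values below 0, with some close to it, and the class I heavy chains plotted have values above 0.

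Among 21 transcription factors that act on class I promoters, 18 were expressed. Of these, 3 were higher and 0 lower by 0.5, with a median of 0.05. Among all expressed genes, 12.1% were higher and 9.29% lower. *Relb*, an NF-κB subunit, rose from 12.99 to 27.32 FPKM (1.07, counting interval 0.93 to 1.22). *Rfx5*, which binds the X box of class I and class II promoters with NLRC5 or CIITA, rose from 2.998 to 5.396 FPKM (0.85, counting interval 0.63 to 1.07). With its shortest coding transcript about 18 and 33 fragments stood behind these values and the interval, -0.04 to 1.74, held 0. *Rela*, another NF-κB subunit, rose from 46.2 to 66.3 FPKM (0.52, counting interval 0.45 to 0.59), near the threshold.

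The other expressed factors of the list stayed within 0.5. *Irf1*, an activator at ISRE sites, had 31.9 and 24.8 FPKM (-0.36, counting interval -0.48 to -0.25). *Irf2*, which binds the same sites, had 14.0 and 15.4 FPKM (0.13). *Nfyc*, a CCAAT box factor, had 20.1 and 18.1 FPKM (-0.15). *Ciita*, the class II transactivator, was listed at 0 in both libraries.

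The 11 interferon receptor and signalling genes were all expressed and none passed 0.5, with a median of 0.03. Shares over all expressed genes, for this list and for the reference genes below, were 12.1% higher and 9.29% lower. *Ifngr1*, a chain of the interferon-γ receptor, had 115.5 and 86.1 FPKM (-0.42) and the kinase *Jak2* had 20.6 and 16.8 FPKM (-0.29), while *Ifnar2* had 21.98 and 26.99 FPKM (0.30) and *Tyk2* had 5.06 and 6.18 FPKM (0.29). Of 10 interferon genes, 6 were at 0 in both libraries and the highest level of any was 0.200 FPKM. Of 10 MHC class II genes, 7 were at 0 in both libraries and the highest level was 0.338 FPKM. The 15 reference genes had a median of -0.06 with none past 0.5, between *Actb* at -0.35 and *Rpl13a* at 0.17.

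Class I molecules are read on a cell together with other ligands of T cells and NK cells. Of 14 such ligand genes 13 were matched and 6 of these were expressed. Of the 6, 3 were higher by 0.5, 1 was lower and the median was 0.42. Among all expressed genes, 12.1% were higher and 9.29% lower. Over all 13, whatever their level, 5 were higher, 2 were lower and the median was 0, beside 13.8% and 12.9% of all genes. Listed at 0 in both libraries were 3 of the 13. *Pvr*, a ligand of the receptors DNAM-1 and TIGIT, rose from 24.4 to 58.4 FPKM (1.26, counting interval 1.17 to 1.35). *Raet1e*, an NKG2D ligand, rose from 3.69 to 6.21 FPKM (0.75, counting interval 0.36 to 1.16). *Raet1a*, a relative of it with no fragment estimate, had 0.905 and 1.39 FPKM and a difference of 0.61. Its mean of 1.15 FPKM reached 1 only through the KPR_restored level, so its place among the 3 higher genes follows partly from that filter.

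The NKG2D ligand gene *Ulbp1* fell from 17.6 to 10.2 FPKM (-0.79, counting interval -0.91 to -0.66), so NKG2D ligands went both ways. *Raet1d*, one more of them, had 0.443 and 0.200 FPKM from about 12 and 5 fragments. *Cd274*, which encodes PD-L1, had 0.333 and 0.505 FPKM from about 25 and 39 fragments, a difference of 0.59 whose counting interval of -0.17 to 1.38 held 0. *H60a* was not matched.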

How the data were processed

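Total RNA of KPR- and KPR_restored cells was made into directional poly(A) libraries and sequenced in paired 100-base reads. The authors trimmed the reads, mapped them using TopHat (mm10 in the submitters' processing notes) and estimated FPKM values using Cufflinks. The paper also describes FPKM and geometric normalization of read counts in EdgeR. Whether the deposited FPKM values carry that scaling was not tested, and the estimated depths would carry it too. Versions and annotation are not given in the sources used here. Read counts were not used, so no count test was run.

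From the FPKM, log2(FPKM + 0.005) was computed per library and subtracted. This scale understates changes near the pseudocount. Depth was estimated from the steps of low FPKM values of genes with 1 transcript length (GENCODE M21, GRCm38), at a mean fragment length of 211 bases. 78.0% and 80.2% of such values with 0.5 to 5.5 fragments lay within 0.1 of a whole number. Fragments per gene use the longest transcript with a RefSeq counterpart, or the longest of all where none has one. They are high estimates beside those from shorter transcripts.

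The members and gene lists were chosen with earlier results of these data known. The text names all members, in each list the up to 2 genes that went up or down most in log2(FPKM + 1), and 15 fixed genes, apart from some values that are not reported here. *H2-L*, *H2-Q5*, *Trp53*, *Rela*, *Raet1a*, *Epcam* and *Krt8* were named outside this rule, after their values were seen. So were genes added to show the spread of a list and the markers at 0. The ISRE variant was added after the promoters were read. Of 186 listed symbols, 183 matched directly and 1 by an older symbol. Alternatives were other pseudocounts, scalings, filters, thresholds and transcript lengths. Computations were made in Python 3.11.15 with pandas 2.3.3, numpy 2.4.6 and scipy 1.17.1, and plots with matplotlib 3.10.9.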

Additional observations from a re-analysis of the deposited data

How the results depend on the processing

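With a threshold of 1 in place of 0.5, 1 of the 10 members was higher (*Nlrc5*) and 0 were lower, against 3 and 1. The share of all genes past 1 is not given here, so these counts cannot be set against it. With a pseudocount of 1, the median difference of the members was 0.12 against 0.42, and that of *Nlrc5* was 0.08 against 2.59, which follows from the larger pseudocount at low FPKM. The other 20 alternatives for the counts and the median stayed close to the values given, and no difference changed sign. With fragments estimated from the shortest coding transcript, the counting intervals widened to 0.43 to 0.75 for *H2-K1*, 0.24 to 0.57 for *H2-D1*, -0.42 to 0.29 for *Tapbp* and -1.77 to 0.10 for *Erap1*, and those of *Tap1*, *Tap2* and *Nlrc5* held 0. Other scalings moved the median of expressed genes by at most 0.02. Summing *H2-D1* and *H2-L*, an alternative chosen after seeing the data, gave 0.47 against 0.40. No paired analysis was possible because each condition has 1 library, and for the same reason no library could be left out.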
